A study of Nematostella vectensis with 66 samples.

Results

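These results describe 100 gene models of the starlet sea anemone Nematostella vectensis whose transcripts stood highest at ZT10, in the afternoon of a single day in a salt marsh. The members were selected on their own time course. Counts were divided by the total of each library to give counts per 1000000 (CPM), a pseudocount of 2 was added and log2 was taken. Among the gene models with a mean of at least 15 CPM, those with their highest hourly mean at ZT10 were kept and ranked by the F of a one-way analysis of variance over hours. The 100 with the largest F are the members. They come from 605 gene models highest at ZT10, out of 7691 that reached 15 CPM and 24265 in the table. Height at ZT10 and change over the day were therefore built into the choice. Values and counts on these contrasts are given below as descriptions and support nothing.

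The study measured RNA of whole adult animals, descended from a Massachusetts marsh population and reared in the laboratory for several generations. They were penned in the sediment of a tidally restricted pool, and pens were recovered every hour from 8 h (ZT3) to 17 h (ZT12) on the clock. In all there were 29 libraries of pools of 2 animals and 37 libraries of single animals. ZT10, like ZT7, ZT8, ZT9, ZT11 and ZT12, held 3 pooled libraries (letters E to G) and 4 libraries of single animals (A to D). No treatment or genotype set the groups apart. There were 10 pens and 10 time points, and no label ties an animal to its pen, so hour and pen cannot be told apart in any difference between hours. ZT3 and ZT5 also held 3 pooled and 4 single libraries, ZT6 had 2 pooled and 4 single libraries, and ZT4 had 3 pooled libraries and 1 of a single animal. The choice of members left out 6 libraries, namely all 4 of ZT4, ZT3 individual B and ZT5 pooled E, so it used 60 libraries and 9 hours.

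Nematostella is a burrowing cnidarian of estuaries, with a simple body of an outer and an inner cell layer, a nerve net and tentacles around the mouth. Cnidarians follow daily rhythms in movement and in transcript levels, and light acts on these rhythms partly through cryptochromes, a family of light-responsive proteins. Animals in a marsh also meet changes of temperature, salinity and water level within a day. Zeitgeber time (ZT) counts hours from the onset of light. The files give gene model identifiers without names or functions, and 0 of these identifiers matched the RefSeq table of another assembly (jaNemVect1.1). Members therefore appear by identifier, with no role and no sequence. In whole animals, more cells of a type and more RNA per cell cannot be told apart.

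Library totals ran from 251647 to 909746 counts with a median of 640195. At ZT10 they ran from 426899 to 790053, and at ZT9 from 603428 to 909746. All 100 members had a count of at least 1 in each of the 66 libraries. Their mean level had a median of 58.1 CPM (quartiles 33.7 and 136), against 39.1 CPM over all 7691 gene models. The lowest was 15.3 CPM, a mean of 10.2 counts a library, and the highest 3544 CPM.

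As a set, the members formed a low afternoon peak on top of a small morning one. The median member stood 0.22 log2 units below its own 9-hour mean at ZT3, 0.07 above it at ZT5, and 0.17 and 0.21 below it at ZT6 and ZT7. It then stood at 0.03 at ZT8, 0.20 at ZT9 and 0.41 at ZT10, and was back at 0.02 at ZT11 and -0.05 at ZT12. The same median over all 7691 gene models was -0.02 at ZT10 and 0.14 at ZT9. In the median member, ZT10 was 1.38-fold above the mean of the other 8 hours (range 1.15-fold to 2.22-fold) and 1.79-fold above its lowest hour (range 1.27-fold to 3.63-fold). Together the members took 1.56% ± 0.135 of all counts at ZT3 (SD, n = 6), 2.04% ± 0.152 at ZT9, 2.33% ± 0.369 at ZT10 and 1.85% ± 0.218 at ZT11 (n = 7 each).

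**Figure D1:**
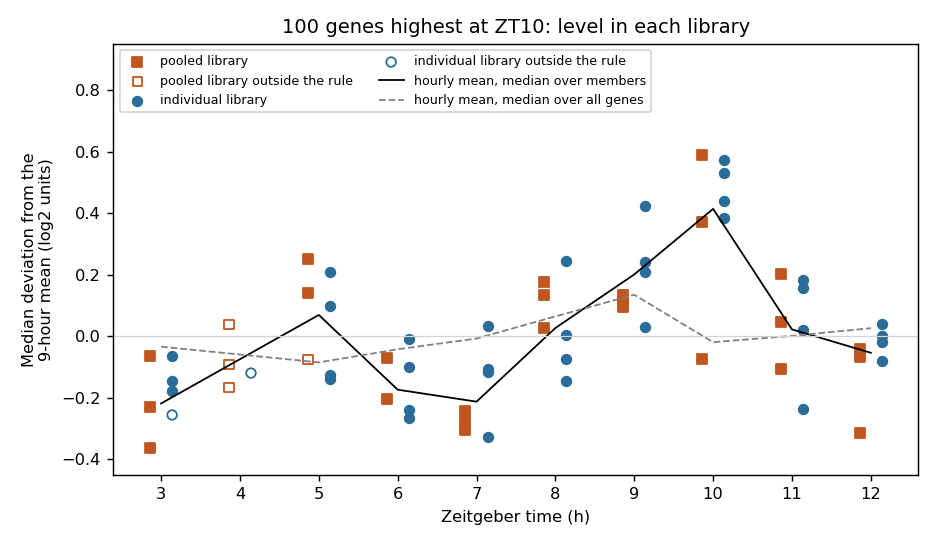
The vertical axis gives, for each library, the median over the 100 members of the deviation from a member's 9-hour mean in log2 units, and the horizontal axis gives zeitgeber time in hours. Squares are pools, circles single animals, and open symbols the 6 libraries outside the choice of members; the solid line gives the hourly means of the members and the dashed line those of all 7691 gene models. At ZT10, 6 of 7 libraries lie between 0.37 and 0.59, and pooled F lies at -0.07.

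The F of the members ran from 2.87 to 7.62 with a median of 3.78. The last member, NVE5861, had an F of 2.87, and NVE10088, the next gene model and no member, had 2.85. The last 10 members lay between 2.87 and 2.97 and the 10 gene models after them between 2.79 and 2.85, an unbroken run of values. NVE5861 averaged 57.3 ± 23.6 CPM at ZT10 and 40 ± 17.4 at ZT9, and NVE10088 53.2 ± 13.5 and 48.2 ± 5 CPM (SD, n = 7 each). The 100 gene models with the largest F among those highest at ZT9 had an F of 5.44 to 11.2, and among those highest at ZT5 it was 6.04 to 14.5. ZT9 was the highest hour of 2468 of the 7691 gene models (32.1%), and ZT10 of 7.87%. In edgeR's quasi-likelihood test of the hour over all 66 libraries, 74 of the 100 members passed an adjusted p of 0.05, against 21.9% of the 10916 gene models tested. The members were chosen on this contrast in 60 of the same libraries, so nothing is read from that count.

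The 4 members with the largest F were NVE25480, NVE3571, NVE6703 and NVE15053. At ZT10, NVE25480 had 210, 246 and 330 CPM as its lowest, median and highest library, against 196, 231 and 299 CPM at ZT9 (7 libraries each). The libraries of the 2 hours overlapped over most of their range. Its mean of 256 ± 40.6 CPM at ZT10 (SD, n = 7) stood clear of 150 ± 22.6 CPM at ZT6 (n = 6), where the highest library reached 184 CPM. At ZT11 it averaged 191 ± 37.3 CPM (n = 7), and its highest library there, at 248 CPM, still lay within the ZT10 range.

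NVE3571 was more abundant, with 390, 554 and 715 CPM as its lowest, median and highest library at ZT10, against 330, 458 and 644 CPM at ZT9. Its course held both features of the set. It averaged 278 ± 51.8 CPM at ZT3, 426 ± 108 at ZT5, 285 ± 44.9 at ZT6 (n = 6), 565 ± 116 at ZT10 and 379 ± 62.3 at ZT12 (SD, n = 7 where not stated). The lowest ZT10 library, pooled F at 390 CPM, lay above the highest library of ZT3 and of ZT6, at 361 and 370 CPM. NVE6703 had 148, 166 and 208 CPM at ZT10 and 136, 173 and 188 CPM at ZT9, again overlapping. At ZT11 its highest library had 135 CPM, below all 7 of ZT10.

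NVE15053 had another course. Its ZT10 libraries held 32.8, 47 and 83.5 CPM (lowest, median and highest), against 10.9, 19 and 51.7 CPM at ZT9. Only ZT9 individual B, at 51.7 CPM, reached into the ZT10 range. Its morning means were 51.2 ± 19 CPM at ZT5 (SD, n = 7) and 49.6 ± 15.5 at ZT6 (n = 6), close to 52.9 ± 17.3 at ZT10 (n = 7). ZT10 was thus level with the morning and above ZT9, and its next-highest hour, ZT5, lay 0.008 log2 units below ZT10.

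**Figure D2:**
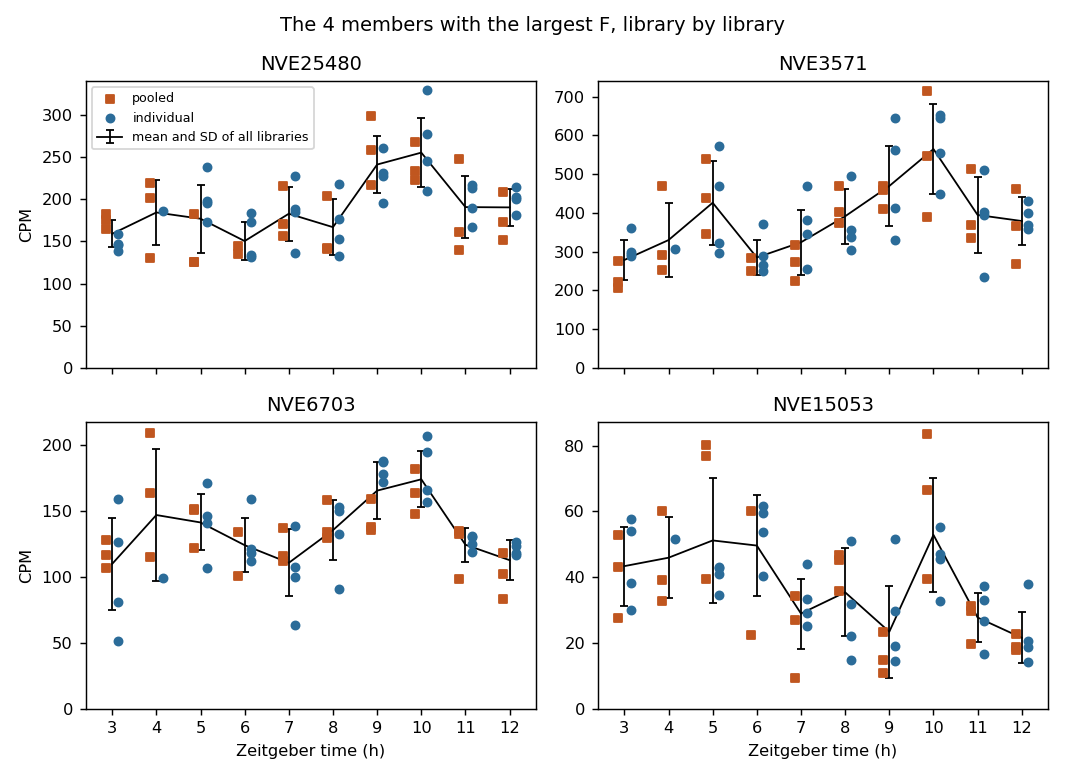
CPM of the 4 members with the largest F (vertical axes) against zeitgeber time in hours (horizontal axes), in all 66 libraries. Squares are pools, circles single animals, and the line with bars gives the mean and SD of all libraries of an hour; NVE25480, NVE3571 and NVE6703 stand high at both ZT9 and ZT10, and NVE15053 averages 52.9 CPM at ZT10 and 23.4 CPM at ZT9.

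The members were sorted by the hour that came next after ZT10 in level, a sorting chosen after the values were seen. The sorting itself makes ZT9 high in the group with ZT9 next, and ZT5 high in the group with ZT5 next. Group medians at those hours are therefore descriptions and cannot show that the courses of the named genes recur. ZT9 came next for 43 members, ZT5 for 24 and another hour for 33. The same shares among all 605 gene models highest at ZT10 were 34.4% for ZT9 and 15% for ZT5. The 43 members built up over the early afternoon. Their median deviation was -0.22 at ZT7, 0.04 at ZT8, 0.27 at ZT9, 0.39 at ZT10 and 0.01 at ZT11, and the median lead of ZT10 over ZT9 was only 0.08 log2 units. The 24 members with a morning shoulder had a median deviation of 0.27 at ZT5, -0.22 at ZT7, 0.06 at ZT9, 0.46 at ZT10 and 0.01 at ZT11. In these the median lead over ZT9 was 0.43 log2 units, and ZT9 lay below the gene's own mean in 11 of the 24. The low ZT9 of NVE15053, a member of this group, was thus not the course of the whole group. The remaining 33 had a mix of next-highest hours. Their median deviation was -0.18 at ZT3, -0.17 at each of ZT5, ZT6 and ZT7, and 0.40 at ZT10. Of these 33, 9 stood above their own mean at ZT3 and 10 at ZT5.

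**Figure D3:**
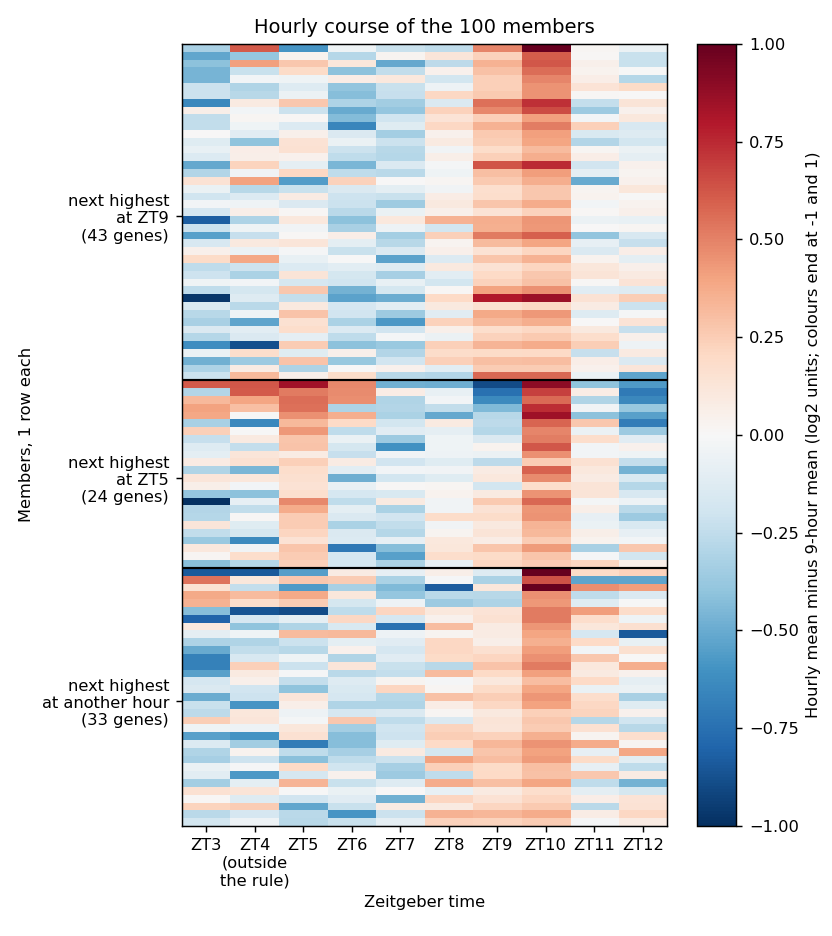
Each row is a member, each column an hour, and colour gives the hourly mean minus the 9-hour mean in log2 units, red above and blue below. Rows are grouped by the next-highest hour (ZT9 in 43, ZT5 in 24, another hour in 33) and sorted within a group by ZT10 minus ZT9; ZT4 was outside the choice of members.

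ZT4 is the hour that the choice of members did not use, and few members stood as high there as at ZT10. The mean of its 4 libraries was above ZT10 in 2 of the 100 members and above the 9-hour mean in 35. Over all 7691 gene models ZT4 was above ZT10 in 39.9%; that share is no test, since the members were chosen high at ZT10. The median member stood 0.48 log2 units lower at ZT4 than at ZT10. The exceptions were NVE14701, with 75.6 ± 16.8 CPM at ZT4 (SD, n = 4) and 73.4 ± 13.8 at ZT10 (n = 7), and NVE9140, with 34.1 ± 6.21 and 33.9 ± 10.9 CPM, named after their values were seen. Of the other libraries outside the choice, ZT3 individual B had 14 members above and 24 below all 6 remaining ZT3 libraries, against 13.2% and 21.3% of all 7691 gene models. ZT5 pooled E had 11 above and 27 below all 6 remaining ZT5 libraries, against 18.6% and 15.3%.

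The step into ZT10 was uneven among members. On the CPM scale the lead of ZT10 over ZT9 had a median of 0.16 log2 units, with quartiles of 0.08 and 0.33 and a highest value of 1.79. This step depends on scaling, since the median of all 7691 gene models was 0.15 lower at ZT10 than at ZT9 in CPM and 0.01 lower with library sizes corrected by TMM (trimmed mean of M-values). With TMM the members' median lead was 0.30 log2 units, and all 100 remained higher at ZT10 than at ZT9, though 13 then had their highest mean at another hour and 87 at ZT10. In edgeR's fit with TMM, 15 of the 100 members passed as higher at ZT10 than at ZT9 and 0 as lower, against 2.78% and 0.229% of all gene models tested. The choice of members put all 100 above ZT9, so nothing is read from these counts. The edgeR log2 differences of the 15 ran from 0.52 (SE 0.13) in NVE4716, named after its value was seen, to 2.21 (SE 0.54) in NVE6890. Without ZT10 pooled E the count of members passing was 2, and without ZT10 pooled F it was 23.

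NVE6890 and NVE11461 had the largest lead of ZT10 over ZT9. NVE6890 had 22.5, 63.3 and 279 CPM as its lowest, median and highest library at ZT10, against 10.9, 18.6 and 67.1 CPM at ZT9. The 279 CPM was that of pooled E, and the next-highest ZT10 library had 132 CPM. The 2 hours overlapped, since 4 of the ZT10 libraries lay below ZT9 individual B, at 67.1 CPM. NVE6890 also had the largest lead of ZT10 over ZT11 (30.8 ± 11.7 CPM at ZT11, against 98.4 ± 87.7 at ZT10, SD, n = 7 each). NVE11461 had 9.75, 27.6 and 75.4 CPM at ZT10 against 4.38, 9.79 and 13.7 CPM at ZT9, with pooled E highest and pooled F lowest. All 6 of its other ZT10 libraries lay above every ZT9 library. At the other end, NVE9099 had 23.4 ± 9.89 CPM at ZT10 and 23.7 ± 9.37 at ZT9, and NVE21645 had 117 ± 26.7 and 115 ± 16.9 CPM (SD, n = 7 each). In both genes the sign of the difference turned when single libraries were left out.

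The step out of ZT10 was larger in the median member. On the CPM scale ZT10 lay above ZT11 by a median of 0.39 log2 units, with quartiles of 0.24 and 0.56, and with TMM by 0.40. In edgeR's test 3 members passed as lower at ZT11 than at ZT10 and 0 as higher, against 0.055% and 0.0733% of all gene models tested; the choice of members fixed this direction too, and nothing is read from the counts. They were NVE20109, NVE3025 and NVE20476, the last 2 named after their values were seen. NVE20109 averaged 14.7 ± 6.92 CPM at ZT11 and 39.6 ± 19.8 at ZT10 (SD, n = 7 each), an edgeR log2 difference of -1.44 (SE 0.33). NVE3025 averaged 22.2 ± 5.43 CPM at ZT11 and 54.1 ± 20.4 at ZT10 (-1.31, SE 0.31). NVE20476 averaged 39.2 ± 13.3 CPM at ZT11 and 82.1 ± 32.9 at ZT10 (-1.09, SE 0.25). These 3 calls lay just inside the threshold. Leaving out each of the 66 libraries in turn gave 0 calls in 54 cases, and 10 without ZT10 pooled F.

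A few members stayed high. NVE16978, the most abundant member, averaged 4049 ± 490 CPM at ZT11 and 4177 ± 981 at ZT10 (SD, n = 7 each), and NVE14612 averaged 53.1 ± 15.9 and 52.9 ± 10.4 CPM. In NVE16978 all 7 ZT11 libraries lay within the range of ZT10, and in NVE14612 the ZT11 libraries spread more widely, from 32.6 to 74.2 CPM, than the ZT10 libraries, from 42.3 to 67.5 CPM. NVE12992, the second most abundant member, was lower at ZT11, with 692, 1638 and 1996 CPM at ZT11 as its lowest, median and highest library and 1121, 2367 and 2824 CPM at ZT10. Its ZT10 low was again pooled F, and without that library the range at ZT10 began at 1954 CPM.

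The ZT10 libraries were not alike. In 25 of the 100 members all 7 ZT10 libraries stood above the gene's own 9-hour mean, in 55 members 6 did, and in 20 members 5 did. ZT10 pooled F was the usual exception. It lay below that mean in 54 members and was the lowest of the 7 in 59, where it was lowest in 20.7% of all 7691 gene models. The members were chosen on the mean of these 7 libraries, so these shares are descriptions. The total of pooled F was 615343 counts, within the range of the other 6. Over all 7691 gene models its deviations spread more widely than in most libraries, with an interquartile range of 0.85 log2 units against a median of 0.65 over the 60 libraries; ZT9 individual B, at 0.90, spread most. ZT10 individual C and pooled E spread about as widely as pooled F, at 0.85 and 0.83 log2 units, and both stood high in the members. The other 6 libraries all stood above the mean in 63 members. Leaving out pooled F raised the number of gene models highest at ZT10 to 927, of which the 100 with the largest F included 44 of the present members.

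**Figure D4:**
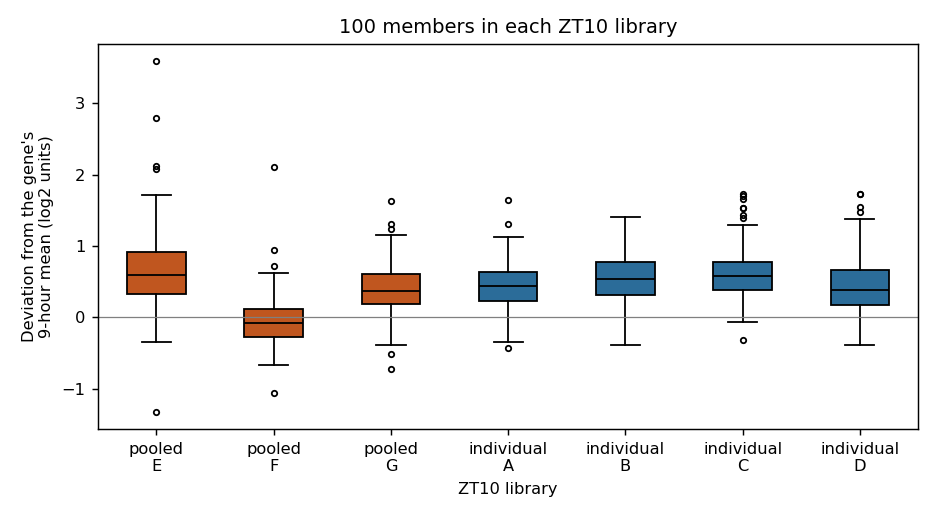
Deviation of each member from its 9-hour mean in log2 units (vertical axis) in the 7 ZT10 libraries (horizontal axis), pools and then single animals. Boxes span the quartiles, the line is the median, whiskers reach to 1.5 interquartile ranges and points lie beyond; the median is 0.59 in pooled E, -0.07 in pooled F, 0.37 in pooled G, and between 0.38 and 0.57 in the single animals.

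Pooled E was the reverse case. It was the highest ZT10 library in 34 members, where it was highest in 13.7% of all gene models. The choice favoured gene models that were high in ZT10 libraries, pooled E among them, so these shares are descriptions. Without pooled E, 67 of the 100 members were chosen again. In NVE2649 pooled E had 236 CPM, against 13.1 to 59.8 CPM in the other 6 ZT10 libraries. NVE12842 had 105 CPM there, against 27.6 to 70.2 CPM. Pooled E was not high throughout, since NVE16985 had 44.4 CPM in it and 167 to 283 CPM in the other 6; these 3 were named after their values were seen. Leaving out each ZT10 library in turn, 52 of the 100 members were highest at ZT10 in all 7 cases. The number still highest at ZT10 was 79 without pooled E, 74 without individual C and 96 without pooled F.

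The kind of library was not used to choose the members, so the level in pools could be tested against that in single animals. None of the 100 members, and 0% of the 10916 gene models tested, passed edgeR's quasi-likelihood test of pools minus individuals with the hour in the model, and the smallest adjusted p among members was 0.749. Unadjusted, 4 members had a p below 0.05, against 5.47% of all gene models, and DESeq2 and limma called 0 members as well. The members differed by a median of -0.05 log2 units (median SE 0.10), and 74 of the 100 lay below 0. Over all gene models tested the median was 0.01 and 47.3% lay below 0. NVE21620 came nearest to passing. It averaged 39 ± 9.46 CPM in pools (SD, n = 29) and 45.4 ± 14.4 CPM in single animals (n = 37), a log2 difference of -0.25 (SE 0.09, edgeR adjusted p = 0.749). The ranges overlapped, from 20.5 to 60 CPM in pools and from 16.1 to 98.4 CPM in single animals.

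The same was asked of the ZT10 rise, as the difference between ZT10 and the mean of the other hours. The members were chosen on a ZT10 mean over 4 single and 3 pooled libraries. A peak and a rise at ZT10 within each kind of library were thus favoured in advance, with more weight on single animals. That weight also bears on the difference between the kinds. Counts and medians of the rise are therefore descriptions, and nothing is read from their distance to all gene models. Within pools alone 37 members were highest at ZT10, and within single animals alone 83 were. Both kinds had their highest mean at ZT10 in 25 members, and neither had in 5. Of the 4 members with the largest F, only NVE3571 was highest at ZT10 in both kinds, and NVE15053 was in neither. Over all gene models ZT10 was highest in 6.27% within pools and in 11.2% within single animals. The median rise was 0.35 log2 units in pools and 0.52 in single animals, over the 8 other hours of the choice, and it was larger in single animals in 72 members. Over all 7691 gene models the median rise was 0.00 in pools and -0.03 in single animals, and it was larger in single animals in 47.6%. Without pooled F, the pools showed a median rise of 0.54, 64 members highest at ZT10 and a rise larger than in single animals in 54 members. In edgeR's fit with TMM, the rise in pools minus that in single animals had a median of -0.07 log2 units in members (median SE 0.31). It lay below 0 in 59 of the 100 members. Over all gene models tested the median was 0.05 and 46.1% lay below 0. The SE was close to the median rise in pools, so a lack of calls does not show equal rises. The edgeR test of the difference in rise, with all 66 libraries and 9 other hours, passed in 0 members and in 0% of all gene models, with a smallest adjusted p among members of 0.495. Unadjusted, 8 members had a p below 0.05, against 6.5% of all gene models. DESeq2 called 2 gene models, none of them a member, and limma called 0.

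NVE3191 had the smallest p in that test. At ZT10 it had 27.6, 30 and 41.7 CPM in the pools, against 62.7, 67.1, 68 and 110 CPM in the single animals. The 2 kinds of library did not overlap at this hour. At the other hours they averaged 39.6 ± 11.5 CPM in pools (SD, n = 26) and 40.3 ± 13.5 in single animals (n = 33). The rise differed by -1.11 log2 units (SE 0.29, edgeR adjusted p = 0.495). NVE3191 was also 1 of 4 members whose pools stood lower at ZT10 than at the other hours, with NVE16484, NVE11571 and NVE23040, which were named after their values were seen. In NVE11571 pooled F had 14.6 CPM, against 41.7 to 63.3 CPM in the other 6 ZT10 libraries.

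**Figure D5:**
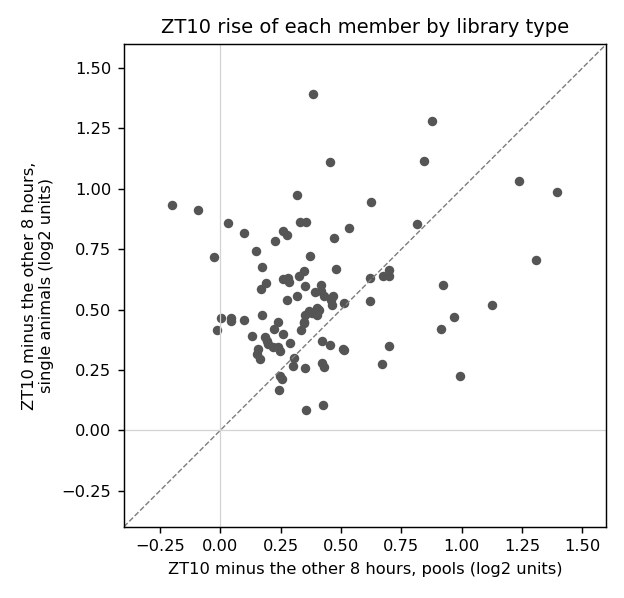
Each point is a member, with the ZT10 hourly mean minus the mean of the other 8 hours in pools (horizontal axis) and in single animals (vertical axis), in log2 units; the dashed line marks equal rises. All 100 points lie above 0 for single animals and 96 lie above 0 for pools. The choice of members favoured a rise in both kinds of library.

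Members also moved together a little between libraries of the same hour. After the hour mean was removed, the median correlation over 4950 pairs of members was 0.13 (quartiles 0.00 and 0.27) across 60 libraries. The median over all pairs of the 7691 gene models was 0.02. Libraries differ in depth and composition, which all genes of a library share, and the part of these in the correlation was not tested. The choice by F also favours a small spread within an hour. Members were more abundant too, at a median of 58.1 CPM against 39.1 CPM. The part of spread and abundance in the correlation was likewise not tested. The median correlation was 0.21 among the 24 members with a morning shoulder, 0.16 among the 43 that built up through ZT9, and 0.14 between these groups. The axis that held most of the variation between libraries took a median of 5.62% of a member's residual variance, and 5.09% over all gene models. The residual SD of a member around its hour had a median of 0.38 log2 units, against 0.47 over all gene models. In members it ran from 0.18 to 0.91, the highest in NVE6890. That SD is the spread of single libraries. The median gap between ZT10 and ZT11, 0.39 log2 units, is a difference between means of 7 libraries each. In edgeR's fit, ZT11 minus ZT10 had a median of -0.44 log2 units in members, with a median SE of 0.21.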

How the data were processed

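Counts per gene model were used as deposited by the authors, as a single table (24265 gene models by 66 libraries). Reads were aligned with Bowtie2 per the submitters' processing notes, to the genome of Putnam and colleagues per the labels. The version, counting tool, annotation and treatment of duplicate reads are not given in the sources used here. Amplified copies may thus be counted, and reads of near-identical gene models may be divided among them or lost. Library totals ran from 251647 to 909746 counts.

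The members were found by the rule given at the start, with CPM computed over all counts of a library. Tests used edgeR 4.0.16 in R 4.3.3 (quasi-likelihood, robust, TMM factors, filter by expression with a minimum count of 10), which kept 10916 gene models and all 100 members, with Benjamini-Hochberg adjustment over all of them and a threshold of 0.05. One fit had the hour and the kind of library, another a mean for each combination of both. The labels mark ZT4 library D as a pool, against the stated protocol, and the label was followed. DESeq2 1.42.0, limma 3.58.1 (voom with quality weights) and other settings were alternatives. Libraries are separate animals or pools per the labels, and p-values measure the spread between them.

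The members, the sorting by next-highest hour and all lists were chosen with earlier results of these data known. Named genes followed a rule: the 4 largest F, the 2 highest means, the 2 largest and 2 smallest differences from ZT9 and from ZT11, the smallest p of each test by kind of library, the last member and the first gene model after it. Others are marked as named after their values were seen.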

Additional observations from a re-analysis of the deposited data

Results flagged for a closer look

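Single animals of the same hour were compared 4 at a time for their total counts, the median deviation of the members, the share of counts in members, and the CPM of named genes at ZT9, ZT10 and ZT11. Dixon's criterion at the 95% level (the gap to the next library over the whole range) marked 4 of 75 such groups, and chance marks about 1 in 20.

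ZT8 individual B had 2.02% of its counts in the members, against 1.68% to 1.71% in the other 3. NVE6890 had 67.1 CPM in ZT9 individual B, against 10.9 to 19 CPM in the others. At ZT10, individual C stood apart in 2 genes. It had 98.4 CPM of NVE21620, against 57 to 58.2 CPM, and 110.1 CPM of NVE3191, against 62.7 to 68 CPM. ZT10 individual C also had the lowest total of its hour, at 426899 counts; the part of depth in these values was not tested.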

How the results depend on the processing

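The list itself depended on the processing. The choice of members set their peak at ZT10, so its presence under other settings of the same libraries supports nothing. Of the 100 members, 53 were chosen again when CPM used TMM library sizes, 19 from single animals alone and 18 from pools alone. Pseudocounts of 0.5 and 5, other minimum levels and all 66 libraries kept between 76 and 99. At a minimum of 30 CPM only 76 members were eligible, and all 76 were chosen again. Leaving out single libraries kept between 44 (without ZT10 pooled F) and 98. Members highest at ZT10 within pools ran from 22 (without ZT10 pooled E) to 64 (without ZT10 pooled F). Calls for ZT10 over ZT9 ran from 2 to 23, again without these 2 libraries, and between 13 and 16 under the other tools, filters and scalings. Calls for ZT11 under ZT10 were 6 with DESeq2, and 0 with DESeq2's size factors, without a filter on low counts and without 4 libraries that share a block of genes (a setting chosen after seeing the data); without single libraries they ran from 0, in 54 of 66 cases, to 10. The cause was not tested. With the replicate letter as a replicate block, 74 members passed the time effect, 16 the step from ZT9 and 2 the step to ZT11. The letters mark separate animals, and deviations of libraries with the same letter correlated at a median of -0.13 to 0.16, with 10 of 66 libraries most alike to their own letter. For pools minus individuals no paired analysis was possible because the letters differ between the 2 kinds of library, apart from D at ZT4. Both tests by kind of library gave 0 members under every setting run. At a mean of 10.2 counts, counting adds to the variation of the least abundant member, and its part was not separated.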
